A study of Mus musculus with 32 samples.

Results

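Liver zonation genes are genes that hepatocytes express at one end of the liver lobule more than at the other, and 9 of them, of 54446 genes in the count tables, were read in 32 RNA sequencing libraries of mouse liver tumours. The set was chosen by name: 4 central genes (Glul, Slc1a2, Oat and Rhbg) and 5 portal genes (Ass1, Cps1, Hal, Sds and Gls2), each as counts scaled to library size on the log2 scale (log2 CPM) and relative to Alb, the albumin gene of hepatocytes. BNL-MEA, a mouse liver cancer line, had been injected under the capsule of the left liver lobe of BALB/c mice, so the tumours grew next to normal liver and each library holds RNA of a whole tumour. The labels give 3 batches, here called experiments after what sets them apart, with 10 groups in all.

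The dose experiment had 4 vehicle libraries and 3 from each of 2 doses of regorafenib, 5 mg/kg/day (the low dose) and 20 mg/kg/day (the high dose). Regorafenib blocks a range of kinases that include the receptors of the vascular growth factor VEGF. The DC-101 experiment had 4 vehicle libraries, 3 from the low dose and 3 from DC-101, which blocks mouse VEGFR2 as an antibody and was injected at 800 µg on days 1, 3 and 5. The anti-PD1 experiment had 3 libraries each from vehicle, the low dose, an antibody that blocks PD1 on T cells, and both drugs together. All groups shared the strain, the cell line and the site of injection, and no group of normal liver or of the cultured line was analysed here. Libraries of one group of the anti-PD1 experiment came from separate tumours by the study's own description. For the other experiments the sources used here do not state it, so p-values there measure the spread between these libraries, which may be technical.

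Blood enters the liver lobule around the portal vein and leaves by the central vein, and hepatocytes along the way divide the work of nitrogen disposal between them. Portal hepatocytes break down amino acids and make urea from ammonia, while the last hepatocytes around the central vein catch what ammonia is left and bind it into glutamine, under control of Wnt signals from the central vein. Liver tumours can keep or lose either programme. In a bulk library, fewer cells that express a gene and less RNA of it per cell cannot be told apart.

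The libraries held 16.8 M to 27.7 M counts, with a count for 21417 to 24321 genes. The level of hepatocyte genes varied widely. Alb ranged from 245 to 493757 counts, that is from 3.47 to 14.77 log2 CPM, and the summed level of 14 other hepatocyte markers ranged from 24.4 to 79800 CPM. In the DC-101 experiment 3 libraries stood apart with the lowest Alb, vehicle replicate 1 (3.76 log2 CPM), vehicle replicate 4 (3.47) and DC-101 replicate 1 (4.54). The next lowest library had 8.13. The slopes of the members over all libraries and their difference between experiments are given with and without these 3 libraries. So are the spread relative to Alb and the change of Ass1 over 3 experiments. Other results, among them slopes and comparisons within the DC-101 experiment, are given only with them.

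Per base of exon, 3 of the 9 genes stood above the other 6 in their medians and interquartile ranges. The values here are medians of log2 RPKM, reads scaled to exon length and library size, over the 32 libraries. Ass1, which makes argininosuccinate in the urea cycle, stood at 5.92, Oat, which turns ornithine towards glutamate, at 5.84, and Glul, the glutamine synthetase of central hepatocytes, at 5.56. The interquartile ranges of these 3 genes overlapped (5.45 to 6.48, 5.77 to 6.14 and 5.35 to 6.18), so their order is not set by these data. Hal, which breaks down histidine, followed at 1.98, Cps1, the mitochondrial enzyme that starts the urea cycle, at 1.96, and Gls2, the liver glutaminase that frees ammonia from glutamine, at 1.29. These 3 could not be ordered beyond their spread either, since the range of Cps1 was from -0.87 to 4.48. The lowest medians were those of Sds, which deaminates serine, at -1.81, Slc1a2, a glutamate transporter, at -3.18, and Rhbg, an ammonia channel, at -3.39. The interquartile range of Sds (-3.37 to 1.73) overlapped those of Slc1a2 and Rhbg and also those of Hal, Cps1 and Gls2, while those of Hal and Gls2 lay above those of Slc1a2 and Rhbg. Alb itself stood at 9.46 on this scale.

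The spread over libraries set the genes apart as much as their level. Cps1 ran from 3 counts in vehicle replicate 1 of the DC-101 experiment to 47975 counts in high dose replicate 1, a range of 13.57 in log2 CPM. Sds ran from 0 to 1294 counts and Slc1a2 from 1 to 1665. Oat had the narrowest range, from 6.64 to 8.89 log2 CPM, and Glul ran from 6.73 to 10.08. Ass1 ran from 5.57 to 10.62, Hal from 2.88 to 7.48 and Gls2 from 2.25 to 7.30, and none of these 5 genes had fewer than 104 counts in any library. Rhbg was near the floor throughout, with at most 27 counts, 22 libraries at 3 counts or fewer and 10 at 0. A count of 0 allows up to 3 counts, and these limits cover counting error only. Sds had 3 counts or fewer in 13 libraries, so its low values and those of Rhbg are limits rather than levels.

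The reads of several members could not all be assigned to them with certainty. Gm5424, a processed pseudogene, is 99.5% identical to the Ass1 transcript over 1240 of its 1696 bases, and it held as many counts as 7.45% to 9.43% of those of Ass1 in the dose experiment, 21.02% to 24.72% in the DC-101 experiment and 22.3% to 25.8% in the anti-PD1 experiment. Within an experiment the share was steady, but between the dose experiment and the others it was not, so treatments are compared for Ass1 only within experiments, and its median, ranges and order over all 32 libraries carry this difference too. Rhbg shares 1193 of 1937 transcript bases at 99.9% identity with Gm38392, which overlaps it on the same strand and had at most 3 counts. How many reads of the shared bases were counted for neither gene is not known, so the low counts of Rhbg may not be a matter of its level or of depth. Sds overlaps Plbd2 and Gls2 overlaps Spryd4 on the other strand, and which strand column the authors took is not stated. Spryd4 had a median of 523 counts against 198 for Gls2. Oat overlaps Fgfr2 on the same strand, with medians of 3213 and 136 counts. Glns-ps1, a processed pseudogene 96.8% identical to Glul over 1126 bases, held at most 1.2% as many counts as Glul. How far these overlaps changed the counts was not tested.

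The genes lie apart in the genome (GRCm38, Gencode M21 gene bodies, exons and introns together). Glul spans chromosome 1 from 153899944 to 153909723 on the plus strand, Cps1 the same chromosome from 67123026 to 67231259, Ass1 chromosome 2 from 31470207 to 31520672 and Slc1a2 chromosome 2 from 102658659 to 102790784. Oat spans chromosome 7 from 132557478 to 132576398 on the minus strand and Rhbg chromosome 3 from 88242874 to 88254709 on the minus strand. Hal spans chromosome 10 from 93488768 to 93519304, Gls2 the same chromosome from 128194457 to 128210004, and Sds chromosome 5 from 120476526 to 120483932. RefSeq promoter windows (GRCm38.p6, 250 bases before to 50 bases after a start) were at hand for 5 members, Glul, Oat, Slc1a2, Ass1 and Hal. The 3 printed here belong to a central gene (Glul) and a portal gene (Ass1) that had at least 1055 counts in every library, and a central gene that moved with Alb (Slc1a2). Capitals mark the dinucleotide CG, which reads the same on both strands.

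Glul, chr1:153899679-153899978, plus strand: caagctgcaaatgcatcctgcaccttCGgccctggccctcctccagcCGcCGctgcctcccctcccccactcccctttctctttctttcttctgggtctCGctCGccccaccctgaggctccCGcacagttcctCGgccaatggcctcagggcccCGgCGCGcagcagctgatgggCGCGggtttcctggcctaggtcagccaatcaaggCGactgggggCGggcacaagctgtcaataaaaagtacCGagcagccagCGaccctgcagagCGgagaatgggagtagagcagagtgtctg
Ass1, chr2:31470020-31470319, plus strand: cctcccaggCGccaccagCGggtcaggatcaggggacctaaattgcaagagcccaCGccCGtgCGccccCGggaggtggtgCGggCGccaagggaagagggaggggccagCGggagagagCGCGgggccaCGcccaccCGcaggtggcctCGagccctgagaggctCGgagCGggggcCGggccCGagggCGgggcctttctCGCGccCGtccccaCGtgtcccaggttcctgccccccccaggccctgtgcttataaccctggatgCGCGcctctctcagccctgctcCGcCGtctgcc
Slc1a2, chr2:102706188-102706487, plus strand: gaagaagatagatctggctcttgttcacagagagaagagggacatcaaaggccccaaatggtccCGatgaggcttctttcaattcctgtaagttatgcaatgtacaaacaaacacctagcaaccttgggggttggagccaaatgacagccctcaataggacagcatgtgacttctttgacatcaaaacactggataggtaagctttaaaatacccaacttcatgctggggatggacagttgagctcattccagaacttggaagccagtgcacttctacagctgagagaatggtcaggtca

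The Glul window held 17 CG dinucleotides, a count that 31.4% of all 32851 windows of this length reach, and the Ass1 window held 27, reached by 15.5%. The Slc1a2 window held 1, a count that 94.6% of windows reach, and it lies inside the Gencode gene body, downstream of the first annotated start. The Oat window held 22 and the Hal window 7, which is also the median over all windows. These counts are a description of the windows, and no measurement of the promoters themselves was analysed here.

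Which zonation genes moved with Alb was asked with 1 fit over all 32 libraries, with the group as a term and log2 CPM of Alb in the same library as the variable tested. The slope is the log2 change of a gene for 1 log2 unit of Alb among libraries of one group. A slope of 1 is a gene that keeps its ratio to Alb, and a slope of 0 is one that does not move with it. Over all 17995 genes tested with edgeR's quasi-likelihood F-test (2-sided), 1317 (7.32%) had a positive slope and 14 (0.0778%) a negative slope at a Benjamini-Hochberg adjusted p under 0.05, with a median slope of -0.01. Of the 9 members, 4 passed the threshold, all with a positive slope, and the median of the 9 was 0.21.

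The line between the members ran across the zones. Of the portal genes, Cps1 (slope 1.13, SE 0.13, adjusted p 3.24e-07) and Sds (1.20, SE 0.24, adjusted p 0.00066) had slopes near 1 over all 32 libraries, though not in every fit below. The same held for Rhbg among the central genes (1.12, SE 0.17, adjusted p 3.02e-05), and Slc1a2 had a slope of 0.69 (SE 0.14, adjusted p 0.000988, 95% interval 0.40 to 0.98). The other 5 members did not pass in this fit, and the upper end of each of their 95% intervals was far below 1. The slope was 0.21 for Gls2 (adjusted p 0.0547, upper end 0.35), 0.12 for Ass1 (adjusted p 0.0873, upper end 0.21) and 0.12 for Hal (adjusted p 0.584, upper end 0.29). For the central genes Glul and Oat it was 0.07 (adjusted p 0.599, upper end 0.17) and 0.06 (adjusted p 0.225, upper end 0.12).

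**Figure D1:**
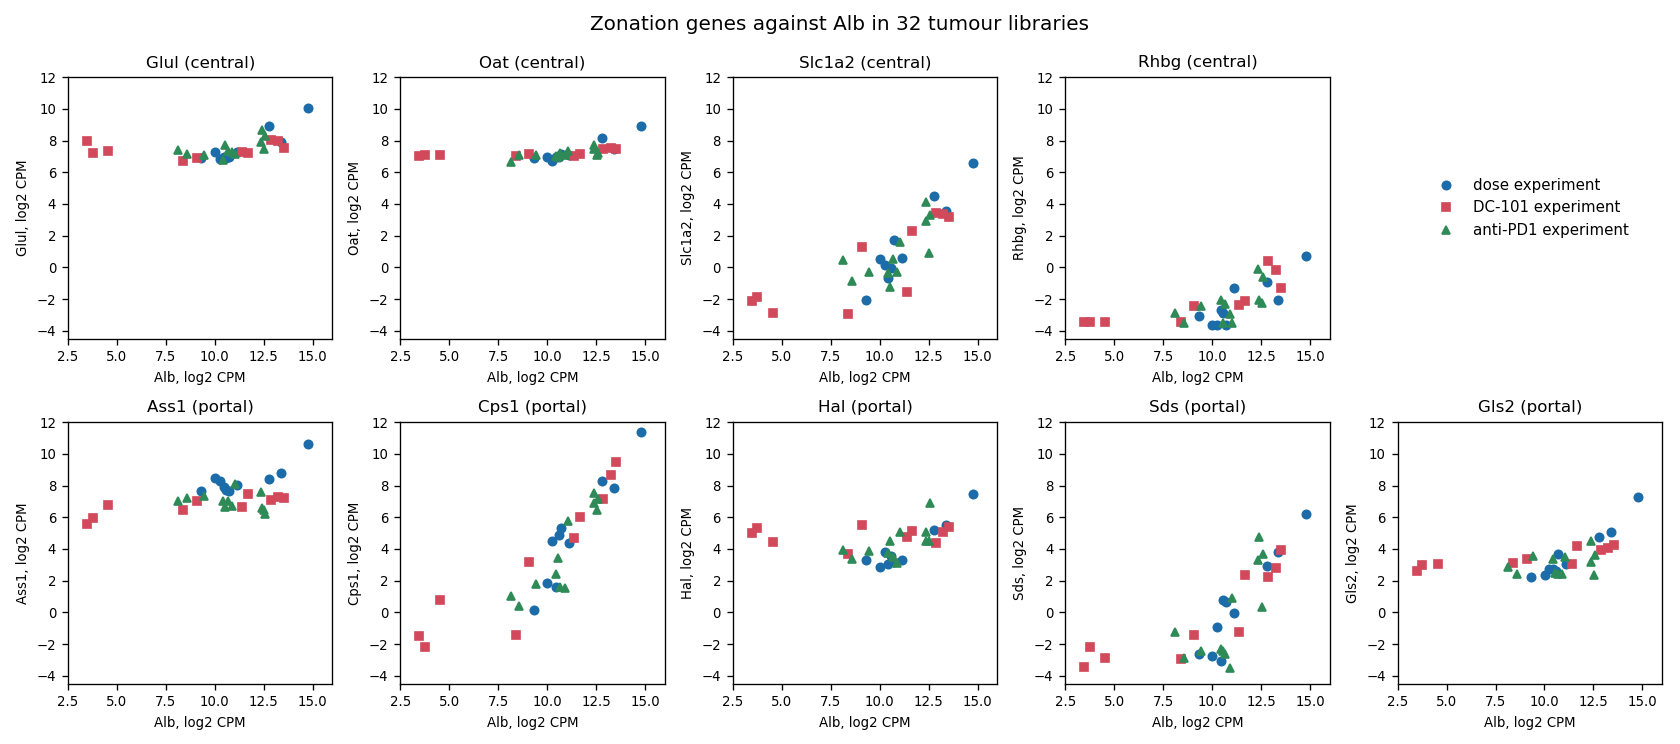
Level of each zonation gene (log2 CPM, vertical axis) against Alb (log2 CPM, horizontal axis), 1 panel per gene, 1 point per library, with colour and shape for the experiment. Cps1, Sds, Slc1a2 and Rhbg climb with Alb, while Glul, Oat, Ass1, Hal and Gls2 rise less over the whole range of Alb. In the DC-101 experiment Ass1 is lowest in the library lowest in Alb.

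The counts in the 3 libraries with the lowest Alb were as follows. In vehicle replicates 1 and 4 and DC-101 replicate 1 of the DC-101 experiment, Cps1 had 3, 6 and 37 counts, Slc1a2 had 4, 3 and 1, Sds had 3, 0 and 1, and Rhbg had 0 in each. Low counts of these genes were not limited to them, since vehicle replicate 2 of the same experiment, with 8556 counts of Alb, had 7 of Cps1, 1 of Slc1a2, 1 of Sds and 0 of Rhbg. The 3 libraries lowest in Alb had 3432, 5603 and 3725 counts of Glul. They had 3153, 2858 and 3130 counts of Oat, and 1434, 1055 and 2549 of Ass1. Hal had 902, 704 and 489 counts there, and Gls2 had 183, 133 and 190. Glul, Oat, Ass1, Hal and Gls2 were thus present in tumours with hardly any Alb. Ass1 and Gls2 were nevertheless lower in these libraries than in the others of their groups. Ass1 was at 5.98 and 5.57 against 6.45 and 6.68 log2 CPM under vehicle and 6.78 against 7.20 and 7.28 under DC-101, and Gls2 at 3.02 and 2.60 against 3.10 and 3.04 and at 3.05 against 4.25 and 4.08. In vehicle replicate 4 Glul stood 4.50 log2 units above Alb.

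Read relative to Alb, the spread of the members depended on the same 3 libraries. Over all 32 libraries the difference between the log2 CPM of Cps1 and of Alb ran over 6.48 log2 units (-9.84 to -3.36), less than its own range of 13.57. The difference between Glul and Alb ran over 10.47 log2 units (-5.97 to 4.50), against an own range of 3.35, and that between Oat and Alb over 9.61, against 2.25. Without the 3 libraries lowest in Alb, the difference to Alb ran over 5.23 log2 units for Glul (-5.97 to -0.74) and 4.71 for Oat, both less than the 6.48 for Cps1 and 6.74 for Sds. Dividing by Alb there narrowed the spread of Cps1 (from 12.86 to 6.48), Sds (from 9.69 to 6.74), Slc1a2 (from 9.49 to 5.30) and, slightly, Gls2 (from 5.05 to 4.89). It widened that of Rhbg (from 4.32 to 4.47), whose slope was near 1, and that of the other 4 members, for example Glul (from 3.35 to 5.23).

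How far a gene followed Alb depended on the libraries at the low end. Without the 3 libraries lowest in Alb, a choice made after the values were seen, 8 of the 9 members passed the threshold, all except Ass1 (slope 0.25, adjusted p 0.0543), beside 9.86% of 18551 genes called in either direction. The slopes were then 0.29 for Glul, 0.16 for Oat, 0.46 for Hal and 0.53 for Gls2, against 0.92 for Slc1a2, 1.21 for Rhbg, 1.54 for Sds and 1.57 for Cps1. In both fits the slopes of Cps1, Sds, Rhbg and Slc1a2 lay above those of the other 5 members. In the 11 vehicle libraries alone, where Rhbg had too few counts, Cps1 was the 1 member of 8 to pass (slope 1.05, adjusted p 0.0319), beside 2.26% of genes called, and Slc1a2 and Sds had slopes of 0.10 and 0.36.

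Within single experiments the picture differed in degree. In the dose experiment all 9 members passed, beside 11.7% of all genes with a positive slope. The slopes there were 1.5 for Cps1, 1.58 for Sds, 1.46 for Rhbg and 1.14 for Slc1a2, and 0.81 for Gls2, 0.80 for Hal, 0.47 for Glul, 0.44 for Ass1 and 0.28 for Oat. In the DC-101 experiment Cps1 (0.96) and Rhbg (0.84) passed, beside 4.99% of all genes, while Hal (-0.02) and Gls2 (0.09) were near 0. In the anti-PD1 experiment only Cps1 passed (2.04, SE 0.41, adjusted p 0.0163), beside 0.95% of all genes. The difference of the slope between experiments was itself past the threshold for 2 of the 9 members, Gls2 (adjusted p 0.0236) and Hal (adjusted p 0.0466), beside 0.589% of all genes tested. Neither passed without the 3 libraries lowest in Alb.

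**Figure D2:**
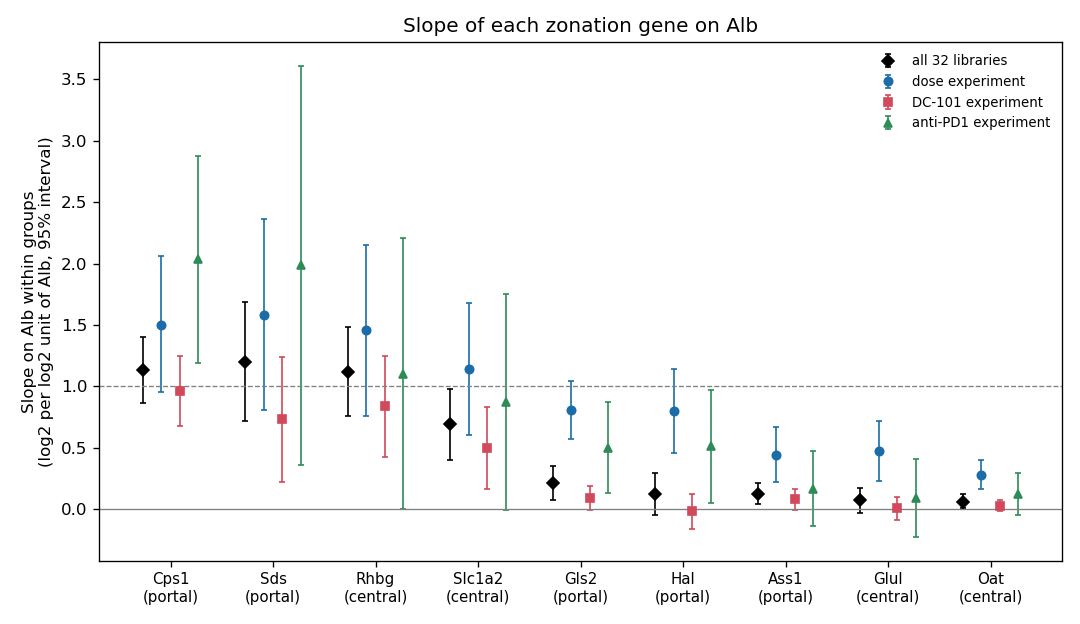
Slope of each zonation gene on Alb within groups (vertical axis, log2 per log2 unit of Alb), for all 32 libraries and for each experiment, with 95% intervals as bars. The dashed line at 1 marks a constant ratio to Alb and the line at 0 marks no relation. Over all 32 libraries the intervals of Cps1, Sds and Rhbg include 1, while Glul and Oat lie near 0. Single experiments differ, with Cps1 at 0.96 beside DC-101 and 2.04 beside anti-PD1, and Slc1a2 at 1.14 in the dose experiment.

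Genes of the lists around the members were read in the same fit. All 14 hepatocyte markers passed with a positive slope, for example Ahsg, a plasma glycoprotein of hepatocytes (1.0, SE 0.05, adjusted p 1.35e-13). So did 13 of 13 other pericentral hepatocyte genes, among them Cyp2e1, which oxidises ethanol and other small molecules (0.96, SE 0.10, adjusted p 9.56e-08), and 11 of 12 other periportal genes. Of 6 other urea cycle genes 5 passed, among them Asl (slope 0.20, SE 0.05, adjusted p 0.0103), which cleaves the product of Ass1. Of 8 Wnt target genes of the central zone 4 passed, among them Nkd1 (0.42, SE 0.09, adjusted p 0.00115), but Tbx3 (0.03, adjusted p 0.833), Znrf3 (-0.01, adjusted p 0.96) and Axin2 (0.13, adjusted p 0.551) did not. Of 18 tested genes of glutamine, glutamate and proline metabolism 6 passed, with Glud1, glutamate dehydrogenase, at 0.15 (SE 0.04, adjusted p 0.0147). Of 10 other histidine and serine genes 4 passed, and Shmt2 and Phgdh, of serine and glycine synthesis, stood at 0.02 and -0.03 (adjusted p 0.871 and 0.857).

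Markers of other cells of the liver also moved with Alb. All 4 Kupffer cell markers passed (Clec4f at 1.16, SE 0.09, adjusted p 5.27e-10), as did 2 of 3 markers of sinusoidal endothelium. None of 7 macrophage, 6 endothelial, 6 fibroblast, 5 neutrophil, 5 bile duct, 4 erythrocyte or 4 proliferation markers passed. The part of these cells in the slopes of the members was not tested.

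Among all other genes, those whose log2 CPM was most like that of each member were found by Pearson's r over the 32 libraries after the group means were taken away. They share libraries and depth, and r is a description. For Cps1 they were Pck1, Akr1d1 and Bhmt (0.97 to 0.98), for Sds Etnppl, Gnmt and Rdh16f2 (0.92 to 0.93) and for Slc1a2 Slc25a15, Igfbp2 and Kynu (0.91 to 0.93). For Glul they were Lifr, Man1a and Slc46a3 (0.89 to 0.91) and for Oat Ebp, Hibadh and Scrn3 (0.91). The nearest gene to Gls2 was Afmid (0.91), and that to Rhbg was 1810019D21Rik (0.92). Ass1 had Gm5424 at 0.99, the pseudogene that shares its sequence, and then Dnaja3 (0.92). With Alb, r was 0.87 for Cps1, 0.68 for Slc1a2, 0.67 for Sds and 0.65 for Rhbg, and it was 0.55 for Gls2, 0.54 for Ass1, 0.49 for Oat, 0.32 for Glul and 0.31 for Hal. Between members, the closest pairs were Slc1a2 with Sds (0.92), a central with a portal gene, and Glul with Oat (0.88), both central.

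The balance of the zones was read as the mean log2 CPM of the 4 central genes minus that of the 5 portal genes in each library, with no test. It was between -2.05 and 0.80. High dose replicate 1, the library with the highest Alb, was at -2.05, and vehicle replicate 4 of the DC-101 experiment, the one with the lowest Alb, was at 0.70. The group means ran from -1.28 ± 0.68 (SD, n = 3) in the high dose group to 0.34 ± 0.74 (SD, n = 3) in the group given the low dose plus anti-PD1. The vehicle mean was -0.32 ± 0.60 (n = 4) in the dose experiment, 0.00 ± 0.73 (n = 4) beside DC-101 and -0.94 ± 0.19 (n = 3) beside anti-PD1. In the anti-PD1 experiment the vehicle libraries (-1.11 to -0.73) lay below those of anti-PD1 (-0.07 ± 0.33, from -0.44 to 0.18) and of the combination (-0.52 to 0.80), while those of the low dose (-0.39 ± 0.98, from -1.50 to 0.37) spanned the vehicle range. A mean of log values gives Rhbg and Sds, often at the floor, the same weight as Glul.

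**Figure D3:**
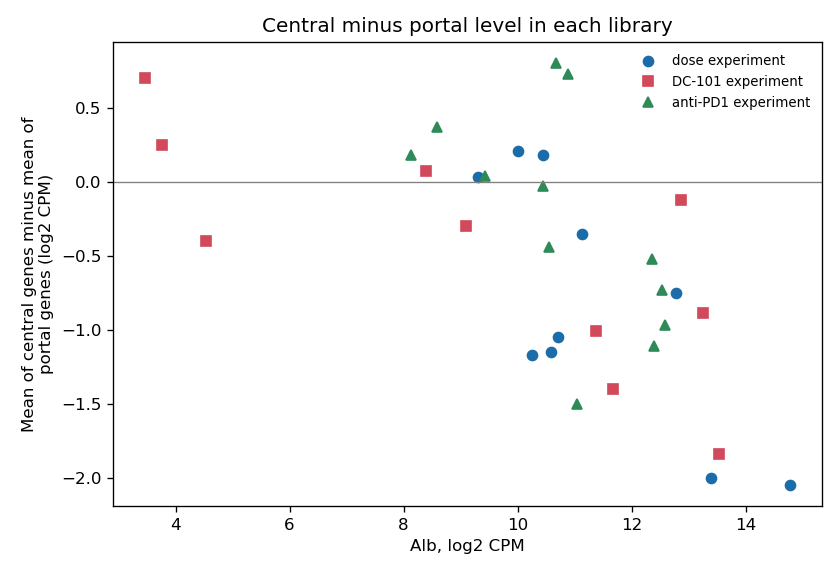
Mean log2 CPM of the 4 central genes minus that of the 5 portal genes (vertical axis) against Alb (log2 CPM, horizontal axis), 1 point per library. The library with the highest Alb lies at -2.05 and the one with the lowest at 0.70, with values on both sides of 0 at middle levels of Alb.

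The low dose of regorafenib was compared with vehicle in all 3 experiments, in a fit with the experiment as a term (9 against 11 libraries). Ass1 rose by 0.93 on the log2 scale (SE 0.15, 95% interval 0.61 to 1.25, adjusted p 0.00265, edgeR, 2-sided). Of the 8 members tested it alone passed, beside 0.733% of 15562 genes that were higher. Of the 8 log2 changes, 7 were positive with a median of 0.86, against a median of 0.03 over all genes. Rhbg had too few counts to be tested.

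In the dose experiment, Ass1 was at 7.66, 7.70, 7.91 and 8.01 log2 CPM under vehicle and at 8.32, 8.49 and 8.79 under the low dose. The DC-101 experiment had 5.98, 6.45, 6.68 and 5.57 under vehicle and 7.47, 7.05 and 7.10 under the low dose. In the anti-PD1 experiment it was at 6.49, 6.60 and 6.19 under vehicle and at 7.05, 8.11 and 7.19 under the low dose. Every low dose library was thus above every vehicle library of its experiment, which held upwards for 0.193% of the genes tested. The log2 change was 0.72 in the dose experiment, 0.99 beside DC-101 and 1.09 beside anti-PD1 (adjusted p 0.991, 0.135 and 0.265), and it did not differ detectably between them (unadjusted p 0.644, adjusted p 0.969).

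**Figure D4:**
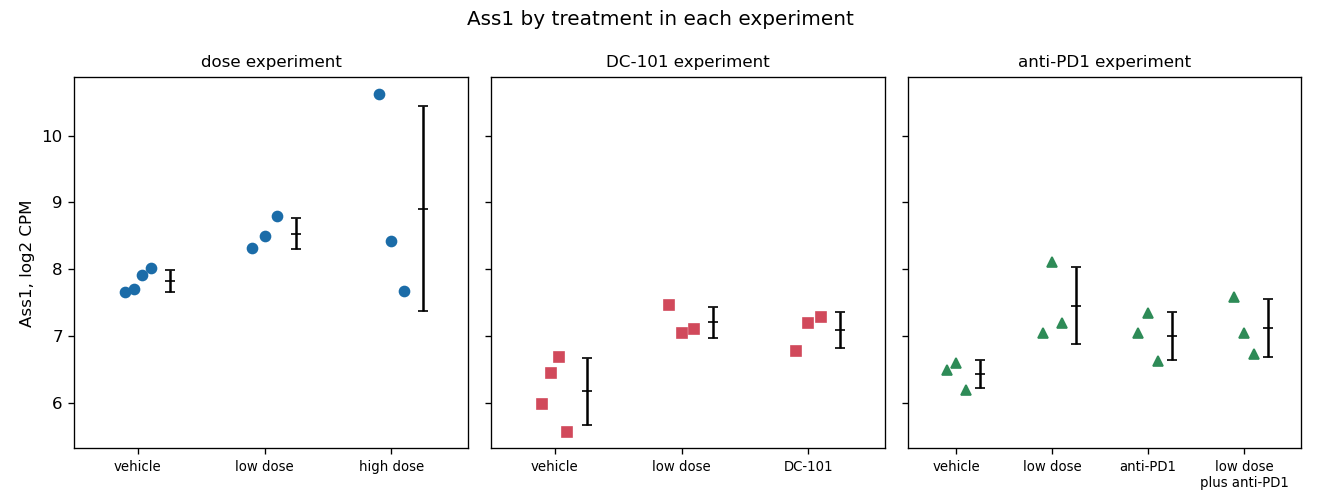
Ass1 (log2 CPM) by treatment in the 3 experiments, 1 point per library, with the mean and SD of each group in black beside the points. Low dose libraries lie between 8.32 and 8.79, 7.05 and 7.47, and 7.05 and 8.11, above the vehicle libraries of the same panel.

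Mean Alb was higher under the low dose, as Ass1 was, in the dose experiment (11.22 against 10.37 log2 CPM) and in that of DC-101 (11.21 against 6.75). In the anti-PD1 experiment it was at 12.39 to 12.58 log2 CPM under vehicle and at 8.58 to 11.04 under the low dose, the opposite order to that of Ass1. With Alb as a covariate the change of Ass1 was 0.86 (adjusted p 0.0036), and with the counts of Gm5424 added to those of Ass1 it was 0.92 (adjusted p 0.00295). Without the 3 libraries lowest in Alb it was 0.83 (adjusted p 0.0107). Leaving out any single library gave 0.80 to 0.98 and adjusted p-values up to 0.00885. The call was lost without the dose experiment (1.03, adjusted p 0.0637) and without the DC-101 experiment (0.89, adjusted p 0.0779), each with fewer libraries.

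The other members did not pass in this fit. Slc1a2 had a log2 change of 2.39 (SE 1.03, unadjusted p 0.0315, adjusted p 0.26) and Gls2 of 0.78 (SE 0.31, unadjusted p 0.0206, adjusted p 0.214). Cps1 (1.89, SE 1.35) and Sds (2.15, SE 1.51) had wide errors. Glul (-0.17, SE 0.24), Oat (0.06, SE 0.11) and Hal (0.05, SE 0.45) lay near 0, with 95% intervals of -0.68 to 0.34, -0.16 to 0.28 and -0.89 to 1.0. These values average over experiments that differed in direction. The log2 change of Glul was 0.39, 0.09 and -1.16 in the dose, the DC-101 and the anti-PD1 experiment, that of Hal 1.15, 0.28 and -1.65, and that of Slc1a2 2.65, 5.29 and -2.23, none with an adjusted p under 0.05. Of the other urea cycle genes 0 of 6 passed, with a median of 0.66, and Asl, the enzyme after Ass1, was at 0.15 (SE 0.29, adjusted p 0.846). Hepatocyte markers gave 0 of 14 calls with a median of 1.23, and 4 of 6 endothelial markers fell, beside 1.04% of all genes, such as Cdh5 (-1.25, SE 0.21, adjusted p 0.00301). The part of either cell type in the rise of Ass1 was not tested.

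The change under the low dose was not past the threshold for a difference between experiments in any of the 8 members, although 4 had an unadjusted p under 0.05 (Glul, Slc1a2, Hal and Sds). No gene of 15562 passed this test at the adjusted threshold, and 1481 did so unadjusted. In the anti-PD1 experiment, Cps1 was at 6.46, 7.56 and 7.16 log2 CPM under vehicle and at 2.45, 5.75 and 0.43 under the low dose. In the DC-101 experiment it was at -2.16, -1.45, 4.70 and -1.47 under vehicle and at 6.0, 3.20 and 7.18 under the low dose. The vehicle libraries therefore stood above the low dose libraries in the first case and, with 1 exception, below them in the second. The summed hepatocyte markers were ordered in the same way, at 5550 to 8960 CPM under vehicle and 983 to 3520 CPM under the low dose in the anti-PD1 experiment, and at 24.4 to 4080 and 1690 to 18900 CPM in the DC-101 experiment.

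At the high dose of regorafenib, 4 of the 8 members tested were higher than under vehicle, beside 8.80% of 16525 genes that were higher. They were Slc1a2 (5.73, SE 1.34, adjusted p 0.037), Gls2 (3.35, SE 0.93, adjusted p 0.0463), Glul (2.14, SE 0.57, adjusted p 0.0437) and Oat (1.25, SE 0.34, adjusted p 0.0456), in log2 changes by edgeR. The other 4 had positive log2 changes that did not pass: Cps1 (6.26, adjusted p 0.0525), Hal (2.91, adjusted p 0.0552), Ass1 (1.64, adjusted p 0.0682) and Sds (5.39, adjusted p 0.0743). The median of the 8 was 3.13, against 0.02 over all genes.

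These calls rest on groups with a wide spread. Slc1a2 was at 6.56, 4.52 and 1.72 log2 CPM under the high dose and at -2.03, -0.01, -0.66 and 0.56 under vehicle. Gls2 was at 7.30, 4.76 and 3.69 against 2.25, 2.59, 2.76 and 3.08, and Oat at 8.89, 8.16 and 7.13 against 6.89, 6.98, 6.95 and 7.09. Glul was at 10.08, 8.95 and 6.97 against 6.89, 6.92, 6.94 and 7.27, so its groups overlapped. Slc1a2, Oat, Gls2 and Cps1 had groups that did not overlap, as did 28.3% of all genes tested. High dose replicate 1 was the highest library of the whole series for Alb and for each of the 9 members, while replicate 3 was much nearer to vehicle. It lay inside the vehicle range for Glul, Hal (3.15 against 3.03 to 3.58), Ass1 (7.67 against 7.66 to 8.01) and Sds (0.65 against -3.09 to 0.80), just above it for Oat (7.13 against 6.89 to 7.09), and had 0 counts of Rhbg against 1 to 8 under vehicle.

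The count of members called moved between 0 and 8 when 1 library was left out. It was 0 without any 1 of the 4 vehicle libraries, low dose replicates 1 and 2 or high dose replicates 1 and 2 (beside 0.091% to 5.65% of genes called), 7 without low dose replicate 3 (beside 15.6% of genes called in either direction) and 8 without high dose replicate 3 (beside 41.1%). With Alb as a covariate Slc1a2 alone passed (2.21, adjusted p 0.0278), beside 0.599% of genes. Glul was then at 0.59 (adjusted p 0.518), Gls2 at 0.69 (adjusted p 0.277) and Oat at 0.41 (adjusted p 0.411). Without high dose replicate 1, Glul was at 1.25 (adjusted p 0.122), Slc1a2 at 4.10 (adjusted p 0.0785), Oat at 0.76 (adjusted p 0.0944) and Gls2 at 1.63 (adjusted p 0.17). Hepatocyte markers summed to 2970 to 79800 CPM under the high dose and to 1130 to 8570 CPM under vehicle, with 0 of 14 past the threshold and a median log2 change of 3.62. Of the other lists, 6 of 13 other pericentral genes were higher, 4 of 7 tested Wnt target genes (Axin2 at 2.87, adjusted p 0.0191), 3 of 12 other periportal genes, 2 of 6 other urea cycle genes and 3 of 18 other genes of glutamine, glutamate and proline metabolism. Bile duct markers gave 2 of 5 higher, and 1 of 4 proliferation genes and 1 of 4 erythrocyte markers were lower. Macrophage markers summed to 565 to 1390 CPM against 1600 to 3050 CPM, with 6 of 7 lower, beside 6.82% of all genes. Their part in the change of the members was not tested.

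**Figure D5:**
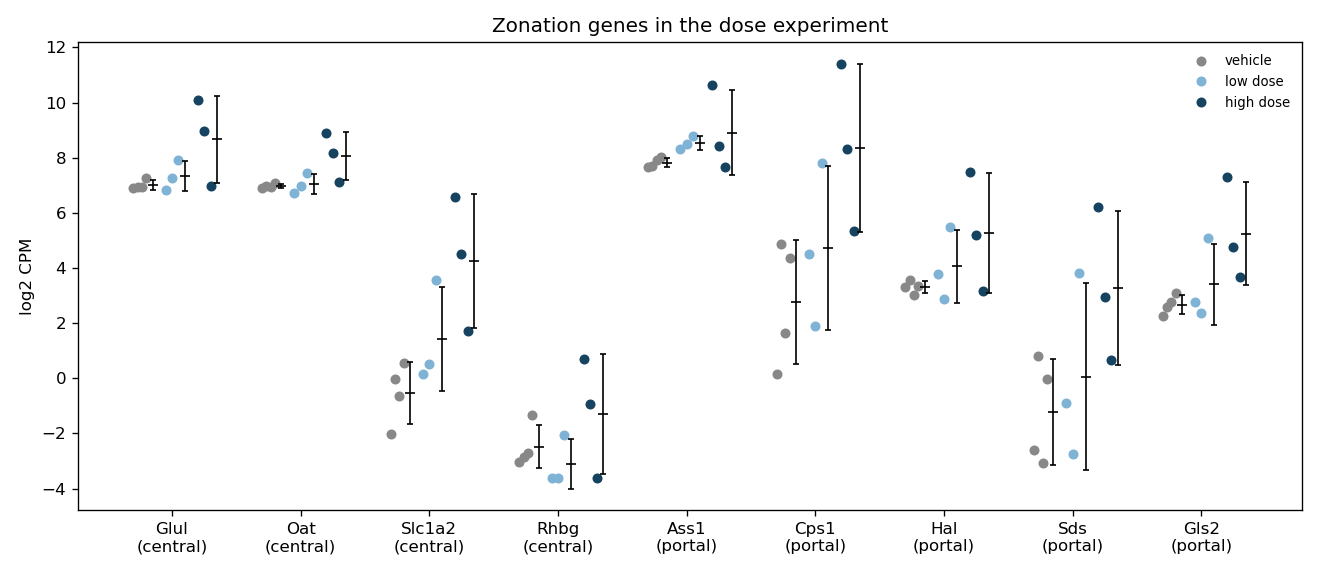
The 9 zonation genes in the dose experiment (log2 CPM, vertical axis), with 1 point per library for vehicle, low dose and high dose, and the mean and SD in black. The high dose group reaches the highest values for every gene, from 0.69 for Rhbg to 11.41 for Cps1, in replicate 1, with replicate 3 inside the vehicle range for Glul, Hal, Ass1 and Sds.

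Against the low dose, the high dose gave 0 of 8 members past the threshold and 3 at an unadjusted p under 0.05, beside 4.22% of genes called and 29.3% unadjusted. The groups overlapped for all 9 members, while 27.8% of the genes tested had groups that did not. DESeq2 called 3 of the 8, beside 18.5% of genes, and limma-voom called 0 members in each of the 11 comparisons made inside a single experiment, although it called 8.06% of all genes for the high dose against vehicle and 4.70% against the low dose. Low dose against vehicle inside the dose experiment gave 0 of 8 by edgeR, beside 0% of genes called, 0 unadjusted, beside 4.94%, and 0 by DESeq2, beside 0.514%. Low dose replicate 3 held Cps1 at 7.82 and Sds at 3.82 log2 CPM, near high dose replicate 2 (8.32 and 2.93), while the other 2 low dose libraries lay in the range of the vehicle group for both genes.

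DC-101 asked whether blocking VEGFR2 alone was accompanied by the same changes. Against vehicle, 0 of 8 members passed with edgeR, beside 0% of 16138 genes, and 6 had an unadjusted p under 0.05, beside 13.2% of genes. DESeq2 called 3, beside 2.31% of genes. Ass1 was at 6.78, 7.20 and 7.28 log2 CPM under DC-101, above all 4 vehicle libraries (5.57 to 6.68), and its groups were the only ones of the 9 that did not overlap, beside 13.4% of all genes. Slc1a2 was at -2.88, 3.18 and 3.36 and Cps1 at 0.76, 9.49 and 8.65 under DC-101, each low in the replicate that is low in Alb. Between DC-101 and the low dose 0 of 8 members passed with edgeR, beside 0% of genes, and 0 unadjusted, beside 8.45%. DESeq2 called 0, beside 1.26%. The log2 change of Ass1 was -0.11 (SE 0.27, 95% interval -0.73 to 0.50). In the DC-101 experiment the low dose gave 0 of 8 members past the threshold with edgeR against vehicle, beside 0.0248% of genes called, 4 unadjusted, beside 17.1%, and 3 with DESeq2, beside 6.80%. Slc1a2, Oat, Ass1 and Gls2 did not overlap there, as did 16.4% of genes.

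Anti-PD1 and its combination with the low dose were compared with vehicle and with each other. No member of 8 passed in any of the 5 comparisons of this experiment with edgeR, beside 0% of 16615 genes in each, and between 0 and 5 had an unadjusted p under 0.05, beside 3.64% to 13.7% of genes. DESeq2 called 1 member for the low dose against vehicle (beside 2.56% of genes) and 2 for anti-PD1 against vehicle (beside 3.70%). Glul, Ass1 and Cps1 did not overlap between the low dose and vehicle, beside 14% of genes, with Glul at 6.77, 7.18 and 7.18 log2 CPM under the low dose and 7.46, 8.67 and 8.27 under vehicle (unadjusted p 0.00387, adjusted p 0.248). Alb was higher in the 3 vehicle libraries (12.39 to 12.58 log2 CPM) than in every other library of this experiment. Slc1a2 was at 0.93, 2.95 and 3.29 log2 CPM under vehicle and at 0.48, -0.29 and -1.23 under anti-PD1, and Sds at 0.36, 4.74 and 3.68 against -1.22, -2.42 and -2.43. Slc1a2, Ass1, Cps1 and Sds did not overlap between anti-PD1 and vehicle, as did 16.6% of genes tested, with Ass1 alone of these higher under the antibody (7.04, 7.34 and 6.63 against 6.49, 6.60 and 6.19). Rhbg, with 3, 3 and 13 counts under vehicle against 1, 2 and 0, could not be told apart at counts this low. Under the combination Ass1 was at 7.59, 7.05 and 6.73, again above the 3 vehicle libraries, with an unadjusted p of 0.0499 and an adjusted p of 0.608. Hal went the other way, at 4.51, 3.49 and 3.09 under the combination against 4.51, 5.05 and 6.93 under vehicle (log2 change -2.07, unadjusted p 0.00951, adjusted p 0.483). The groups of Ass1 and Hal did not overlap, those of Hal by less than the rounding of these values, beside 17.7% of genes tested. Between the combination and anti-PD1 alone, Oat was the 1 member of 9 whose groups did not overlap (7.24 ± 0.19 against 6.90 ± 0.23 log2 CPM, SD, n = 3 each), beside 30.4% of genes tested. The gap was less than the rounding, with the lowest combination library and the highest anti-PD1 library both at 7.07. Replicate 1 of the combination was the highest of its group for each of the 9 members and for Alb (12.36).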

How the data were processed

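Gene expression was measured in 32 tumour libraries made with a stranded mRNA kit and read as pairs. The authors trimmed reads with cutadapt 2.4, aligned them to GRCm38 with STAR 2.7.2a and had STAR count reads per Gencode gene. The deposited files hold these counts as they came, without scaling, in 3 tables with 1 experiment each. The strand setting of the counting is not given in the sources used here. Gene identifiers were matched to Gencode M21 (54409 of 54446, 99.93%), and promoter windows were read from RefSeq.

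Low genes were dropped with filterByExpr at a minimum count of 10 and a total of 15. The rest were scaled by TMM and tested with the robust quasi-likelihood F-test of edgeR 4.0.16 in R 4.3.3, with Benjamini-Hochberg adjustment over all genes tested and a threshold of 0.05. Log2 CPM were computed within each table with a prior count of 2, and log2 RPKM used exon lengths. All groups of an experiment were fitted together, the low dose over 3 experiments with the experiment as a term, and slopes with the group and log2 CPM of Alb. Fold changes and slopes are those of the fits, and means are of log2 CPM. The study compared treatments with limma; edgeR was used here because the files hold raw counts. Alternatives were limma-voom (limma 3.58.1), DESeq2 1.42.0, other scalings, no filter, a replicate block, Alb as a covariate, Apoa1 or Ttr in place of Alb for the slope, and leaving out libraries or experiments. Summing Ass1 with Gm5424 and leaving out the 3 libraries lowest in Alb were chosen after seeing the data.

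The members and lists were chosen with earlier results of these data known. Besides the members, up to 4 genes of highest mean level were named from a list, and the 3 genes most like each member. Pairs of libraries of one group differed by more than counting noise (chi-square per degree of freedom 12.9 to 834 over 36 pairs). Tested on simulated data with 200 changed genes, the code recovered 60% of log2 changes of 2 for the high dose (16311 genes), 75.5% for DC-101 (15928 genes), 54.5% for anti-PD1 (16416 genes), 87.5% for the low dose over 3 experiments (15413 genes) and 98% of slopes of 1 (17586 genes). Depth was 16.8 M to 27.7 M counts per library, and the sources describe no molecular identifiers, so PCR copies were counted as reads. Some genes that this rule would name are not reported here.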

Additional observations from a re-analysis of the deposited data

Results flagged for a closer look

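In vehicle groups of 4 libraries, 20 tests asked whether the highest or lowest library stood far from the others, and chance flags about 1 in 20. The gap to the nearest library was 0.882 of the range of the group for Glul in vehicle replicate 4 of the dose experiment (7.27 log2 CPM, the others 6.89 to 6.94). Among the 4 vehicle libraries beside DC-101 it was 0.896 for Cps1 in replicate 3 (4.70 log2 CPM, the others -2.16 to -1.45) and 1 for Rhbg in the same replicate, where that library had 2 counts and the others 0. It was 0.834 for Gls2 in replicate 4 of that group (2.60 log2 CPM, the others 3.02 to 3.10), a library among the lowest in Alb. The slope on Alb differed between the experiments for Hal (adjusted p 0.0466; slope 0.80 in the dose experiment, -0.02 beside DC-101 and 0.51 beside anti-PD1) and for Gls2 (adjusted p 0.0236; 0.81, 0.09 and 0.50 in the same order), by the edgeR test of the difference. Neither passed without the 3 libraries lowest in Alb, and the calls also depended on single libraries, as given below.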

How the results depend on the processing

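Of 1232 values under an alternative, 1051 were classed as the same. Of the others, 21 changes or slopes of members changed sign, 59 gained a call or a higher count, and the rest lost a call or had a lower count. A change or slope was the same if it kept its sign and side of the threshold. Counts of members were the same after small changes too. A group mean of central minus portal was the same within 1 SD, whatever its sign. The low dose mean beside anti-PD1 ran from -0.76 to 0.17 without single libraries. For the high dose against vehicle, 0 members passed with total count scaling (beside 1.71% of all genes), limma-voom (8.06%), no filter on low counts (1.34%), the replicate block (0.00605%) or only the 2 groups compared (0.0249%), 1 with Alb as a covariate (0.599%) and 8 with DESeq2 (beside 31.9% of genes called), and 0 to 8 passed when single libraries were left out. Total count scaling moved the median of all genes there from 0.02 to -0.13. With edgeR and single libraries left out, 0 to 3 members passed for high against low dose, with 3 in a fit that called 26.3% of genes and 0 in the others (0.361% to 3.51%). DESeq2 on all libraries gave 3 members for high against low dose, 3 for the low dose and 3 for DC-101 in the DC-101 experiment, and 1 for the low dose and 2 for anti-PD1 in the anti-PD1 experiment. For the low dose over 3 experiments it gave 2, beside 5.73% of genes, and 0 passed without the dose experiment (0.402%), 0 without that of DC-101 (0.108%) and 2 without that of anti-PD1 (2.59%).

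For the slope on Alb, 1 member passed in vehicle libraries alone (beside 2.26% of genes), 2 without the dose experiment (4.76%), 9 without that of DC-101 (10.1%), 8 without the 3 libraries lowest in Alb (9.86%) and 4 to 6 without single libraries (6.21% to 8.36%). With Apoa1 or Ttr in place of Alb 6 members passed (9.15% and 10.2%). Over 46 alternatives, Gls2 passed in 19 and Ass1 in 7. The difference of slopes between experiments gave 0 with total count scaling (beside 0.0167% of genes), 0 without the 3 libraries lowest in Alb and 0 to 4 without single libraries (0.00539% to 3.81%). It was lost altogether without low dose replicate 1 or high dose replicates 1 or 3 of the dose experiment, or vehicle replicate 3 beside DC-101.

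Signs changed for members near 0 or with wide errors, none of them past the threshold. Under the low dose over 3 experiments, Glul was at 0.24 without the anti-PD1 experiment, and Oat at -0.04 without the DC-101 experiment and -0.01 to 0.13 without single libraries. Hal was at -0.14 with limma-voom, -0.04 with the replicate block, -0.19 with Alb as a covariate, -0.61 without the dose experiment, -0.09 without that of DC-101 and -0.37 to 0.38 without single libraries. Sds was at -0.33 with limma-voom, -0.59 with Alb as a covariate and -0.10 to 2.67 without single libraries. In vehicle libraries alone the slopes of Glul, Oat and Hal were -0.07, -0.01 and -0.08.

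Replicate numbers were not treated as pairs: deviations of same-number libraries correlated above 0.1 in 2 of 9 pairs of the dose, 4 of 9 of the DC-101 and 6 of 18 of the anti-PD1 experiment. With the replicate block, Ass1 under the low dose was at 0.88 (adjusted p 0.00899) and 5 members passed for the slope, beside 5.87% of genes. The causes of these changes were not tested. Rhbg and Sds are limited by low counts, with 22 and 13 libraries at 3 counts or fewer.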
